A study of Mus musculus with 17 samples.

Results

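Newborn testes that lacked both Pld6 and Dnmt3l (double knockout, DKO, 3 libraries) were compared with newborn testes that lacked Dnmt3l alone (Dnmt3L KO, 2 libraries), to ask what the loss of Pld6 added where Dnmt3l was already lost. The 5 libraries were chosen by their age and genotype labels out of 17 in the series, and all genes with a usable estimate in the P0 table entered, 23978 of 23980. Poly(A)-selected RNA from whole testes at postnatal day 0 (P0) had been sequenced with a strand-specific kit as pairs of 100-bp reads. All animals carried the strain label C57BL6/J, and according to the study's methods both mutant lines had been backcrossed to that strain. Both groups carried the Dnmt3l mutation, so neither represents normal testes, and the 2 wild-type (WT) and 4 Pld6 KO libraries of the same age were used to see the same loss of Pld6 where Dnmt3l was intact. The labels name biological replicates but do not say whether an animal or a pool of animals stands behind each library. In RNA from whole testes, fewer cells of a type and less RNA per cell cannot be told apart.

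Pld6 encodes a phospholipase D family protein of the mitochondrial outer membrane that is needed to make PIWI-interacting RNAs (piRNAs), the small RNAs with which fetal male germ cells recognize and cut retrotransposon transcripts and direct DNA methylation to some retrotransposon promoters. Dnmt3l encodes a catalytically inactive cofactor of the de novo DNA methyltransferases, which lay down methylation across the genome of prospermatogonia, the non-dividing male germ cells present at birth. In a testis without Dnmt3l most of that methylation is missing whether or not piRNAs are made, and the piRNA pathway can still cut transcripts. The remaining cells of a newborn testis are mostly somatic and include Sertoli cells, fetal Leydig cells, peritubular myoid cells and stroma.

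Total fragment counts were 11418430 and 11338696 in the Dnmt3L KO libraries, between 9900346 and 23498968 in the DKO libraries, and between 10253012 and 12932265 in the WT and Pld6 KO libraries. Levels below are given as CPM, which are counts scaled to the size of the library. Defining markers of testis were present in all 5 libraries: Sertoli cell markers summed to between 5017 and 6135 CPM, fetal Leydig cell markers to between 2794 and 4321 CPM, and the germ cell helicase Ddx4 stood between 40.6 and 92.8 CPM. DKO replicate 2 had the lowest germ cell signal, with prospermatogonial markers summing to 463 CPM against 948 and 976 CPM in the other DKO libraries and 619 and 792 CPM in Dnmt3L KO. Dnmt3L KO replicate 1 stood apart by transcripts of late germ cells, which summed to 147 CPM against 24.03 CPM in replicate 2 and 18.7 to 21.5 CPM in DKO. DKO replicate 1 held the largest share of fragments from the 45S ribosomal RNA precursor Rn45s, 4.43% against 0.25% to 0.98% in the other 4 libraries.

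The targeted genes were examined first. Pld6 was measured at 5.79 and 1.82 CPM in Dnmt3L KO and had no fragment in any of the 3 DKO libraries. A count of 0 in a group allows up to 3 counts, and against that floor of 0.224 CPM Pld6 was at least 16.96-fold lower in DKO (adjusted p = 0.024). Dnmt3l was close to absent in both groups, at 0.175 and 0.0868 CPM in Dnmt3L KO and 0.107, 0 and 0.126 CPM in DKO, whereas the WT libraries held 4.50 and 6.05 CPM. The Pld6 KO libraries, with Dnmt3l intact by their labels, were uneven. They held 0.4955, 10.7, 2.57 and 14.6 CPM of Dnmt3l, in order of replicate. The genotype labels of all 5 libraries matched the targeted genes.

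Across 15901 genes that passed a filter on low counts, 12 differed between DKO and Dnmt3L KO by more than 2-fold at an adjusted p (Benjamini-Hochberg, edgeR quasi-likelihood test) under 0.05. This was 0.0755% of the genes tested, 8 higher in DKO (0.0503%) and 4 lower (0.0252%). The genes higher in DKO included the noncoding transcript 4930470H14Rik and the protein-coding genes Crebbp, Bcl9l, Plec, Gltscr1 and Kmt2d. The genes lower in DKO were Pld6 itself, Slc9c1, Eif3j1 and Tsx. At an unadjusted p under 0.05, 2836 genes differed (17.8%), 1589 higher (9.99%) and 1247 lower (7.84%), and the smallest adjusted p was 0.0194. The number of calls rested on single libraries: it was 0 without Dnmt3L KO replicate 1, without DKO replicate 1 or without DKO replicate 3, 9 without DKO replicate 2, and 121 without Dnmt3L KO replicate 2, of which 107 were lower in DKO.

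**Figure D1:**
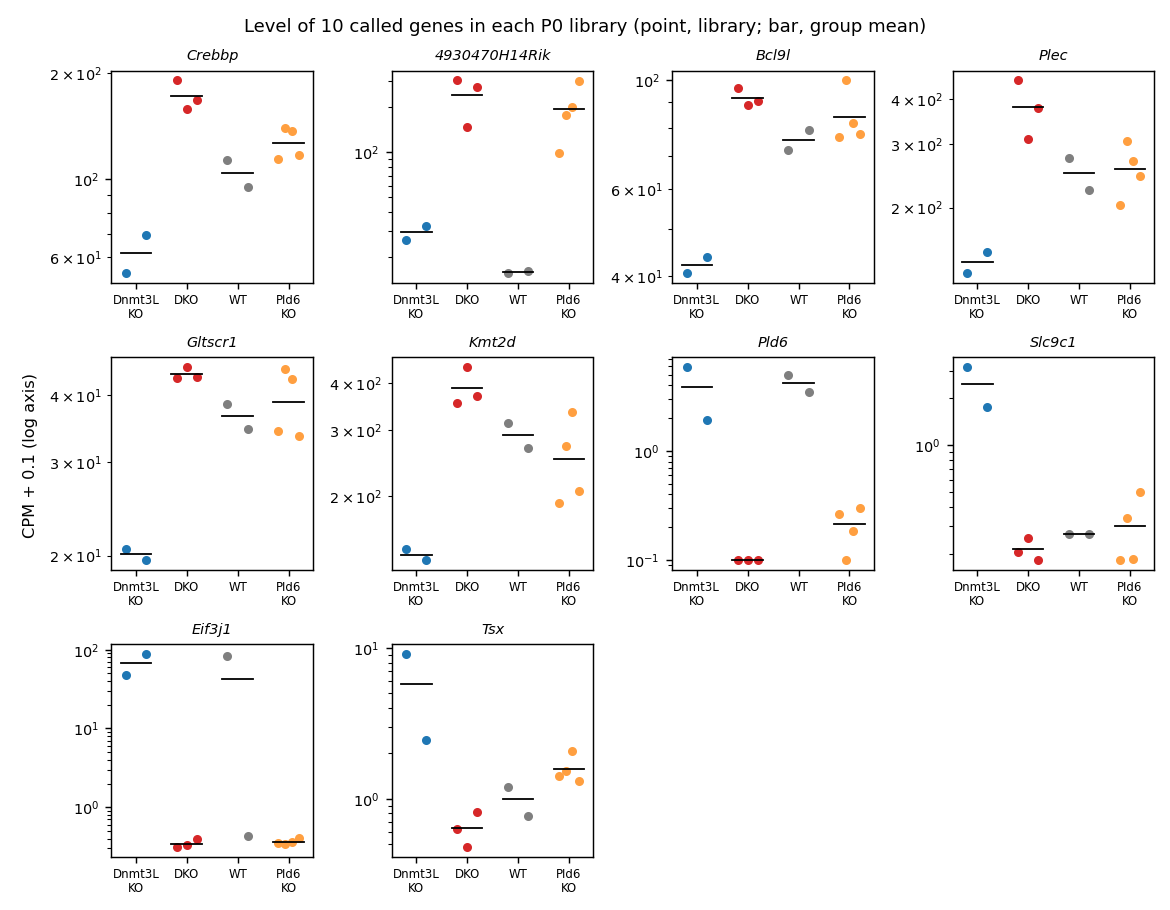
Level of 10 of the 12 called genes in each P0 library. The vertical axis gives CPM plus 0.1 on a log scale, each point is a library and each black bar the mean of a group. In every panel the 3 DKO points lie on the same side of both Dnmt3L KO points. Most of the protein-coding genes higher in DKO stand in WT between the 2 mutant groups, while 4930470H14Rik is high and Pld6 low in all 7 libraries without Pld6.

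Among the called genes the largest rise belonged to 4930470H14Rik, a spliced long noncoding RNA gene of unknown function on chromosome 17 (4044658 to 4082995, GRCm38). It was measured at 26.0 and 32.2 CPM in Dnmt3L KO and at 303, 148 and 274 CPM in DKO, a log2 fold change of 3.06 ± 0.42 (SE, adjusted p = 0.024). The WT libraries held 15.5 and 15.9 CPM and the Pld6 KO libraries 98.4, 178, 202 and 302 CPM. All 7 libraries without Pld6 thus lay above all 4 libraries with Pld6, whether Dnmt3l was present or not. It was the single gene called between Pld6 KO and WT (0.00629% of genes, log2 fold change 3.64, adjusted p = 0.0128), and those libraries share none with the DKO comparison. The difference between the effects of Pld6 loss with and without Dnmt3l was -0.58 ± 0.52 (log2, unadjusted p = 0.284), so a difference was not detectable.

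Because 4930470H14Rik carries the clearest response to the loss of Pld6, the first 300 bases of its first exon are shown from the GENCODE M21 transcript (GRCm38, chr17:4082696-4082995, minus strand, 5′ to 3′). The transcript has 4 exons and 1734 bases. The stretch was not compared with retrotransposon sequences. Whether reads counted for this gene could also come from other places in the genome was not tested. The promoters of 2 further noncoding genes, described next, are shown from RefSeq (GRCm38.p6, 250 bases before to 50 after the start). In both backgrounds their libraries did not overlap and the fold was over 2, but neither gene was called in either. A630089N07Rik lies at chr16:98082390-98082689 on the minus strand and was higher without Pld6, and 2610507I01Rik lies at chr11:59202382-59202681 on the minus strand and was lower. Capitals mark CG dinucleotides, the sites at which DNA methylation is placed.
4930470H14Rik: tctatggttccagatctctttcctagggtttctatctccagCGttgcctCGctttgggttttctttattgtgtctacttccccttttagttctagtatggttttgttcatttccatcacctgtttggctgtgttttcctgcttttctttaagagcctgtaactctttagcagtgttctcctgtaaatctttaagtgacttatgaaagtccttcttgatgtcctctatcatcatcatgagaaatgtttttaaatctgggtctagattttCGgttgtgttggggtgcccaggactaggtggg
A630089N07Rik: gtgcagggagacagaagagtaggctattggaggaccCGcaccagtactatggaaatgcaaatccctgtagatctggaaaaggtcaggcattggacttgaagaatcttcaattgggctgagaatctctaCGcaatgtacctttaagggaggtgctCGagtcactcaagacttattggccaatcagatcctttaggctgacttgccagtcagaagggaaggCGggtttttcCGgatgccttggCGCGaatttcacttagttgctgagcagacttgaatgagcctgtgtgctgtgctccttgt
2610507I01Rik: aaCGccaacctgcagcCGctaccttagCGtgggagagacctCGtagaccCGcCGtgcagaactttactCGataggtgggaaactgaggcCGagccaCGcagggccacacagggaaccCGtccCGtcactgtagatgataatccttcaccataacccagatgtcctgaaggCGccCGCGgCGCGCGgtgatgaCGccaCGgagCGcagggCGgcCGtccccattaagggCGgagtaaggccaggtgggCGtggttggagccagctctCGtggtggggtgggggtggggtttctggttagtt
The stretch of 4930470H14Rik holds 3 CG sites and the promoter of A630089N07Rik 7, which is the median over the 32851 RefSeq promoters. The promoter of 2610507I01Rik holds 25, and 18.4% of promoters hold as many or more.

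A second noncoding gene, the transcribed olfactory receptor pseudogene Olfr856-ps1 on chromosome 9, was measured at 51.7 and 39.4 CPM in Dnmt3L KO and at 299, 134 and 203 CPM in DKO. Its log2 fold change of 2.22 ± 0.40 missed the threshold (adjusted p = 0.0612). The Pld6 KO libraries, at 135 to 334 CPM, all lay above the WT libraries, at 37.5 and 26.3 CPM (log2 fold change 2.79, adjusted p = 0.0585). A630089N07Rik was measured at 17.3 and 18.6 CPM in Dnmt3L KO and at 72.1, 31.8 and 48.3 CPM in DKO (log2 fold change 1.497, adjusted p = 0.0724). In Pld6 KO it stood between 33.0 and 51.5 CPM, again above both WT libraries (15.1 and 17.4 CPM, adjusted p = 0.64). A630089N07Rik and the genes of the next paragraph were picked with their values in view.

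Genes that moved by more than 2-fold in the same direction in both backgrounds, with no overlap of libraries in either, were counted. Regardless of size, the groups did not overlap for 19.4% (higher) and 18.7% (lower) of genes between DKO and Dnmt3L KO, and for 5.83% and 5.69% between Pld6 KO and WT. Of 512 genes that met these conditions as higher in DKO than in Dnmt3L KO (3.22% of genes tested), 39 also met them as higher in Pld6 KO than in WT (7.62% of the first list and 19.6% of the 199 genes in the second, which is 1.25% of genes tested). Of the 39, 26 had a mean of at least 50 counts in DKO or Dnmt3L KO. Besides the 3 transcripts above they included the noncoding Gm17644, at 26.5 and 31.9 CPM in Dnmt3L KO against 155, 79.8 and 73.6 CPM in DKO, and the zinc finger gene Zfp488, at 113 and 107 CPM against 489, 199 and 210 CPM. Both were lowest in WT, at 20.6 CPM in both libraries for Gm17644 and at 91.9 and 77.5 CPM for Zfp488. Grk1, which encodes the rhodopsin kinase of photoreceptors, moved from 14.9 and 10.4 CPM to 39.3, 28.7 and 22.3 CPM. None of these 3 passed an adjusted p of 0.05 in either comparison. In the opposite direction 9 genes were shared, among them Pld6, 2610507I01Rik and Eif3j1. This was 2.79% of 323 lower in DKO (2.03% of genes tested) and 25.7% of 35 lower in Pld6 KO (0.22% of genes tested). For Eif3j1 WT replicate 2 held 4 counts and each Pld6 KO library 3, so its fold change there rested on WT replicate 1.

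The noncoding gene 2610507I01Rik lies 586 kb from Pld6 on chromosome 11. It was measured at 74.8 and 52.4 CPM in Dnmt3L KO and at 5.33, 8.34 and 4.48 CPM in DKO (log2 fold change -3.40 ± 0.66, adjusted p = 0.0689). The WT libraries held 56.9 and 54.6 CPM, 3 Pld6 KO libraries 3.82 to 6.85 CPM, and Pld6 KO replicate 1 held 30.4 CPM. Every library without Pld6 was therefore below every library with Pld6, and Pld6 KO replicate 1 stood midway. Between Pld6 KO and WT the log2 fold change of 2610507I01Rik was -2.28 (unadjusted p = 0.00154, adjusted p = 0.963). Of the 77 genes tested within 2 Mb of Pld6, 7 were higher and 10 lower at an unadjusted p under 0.05, against 9.99% and 7.84% of all genes, and their median log2 fold change was -0.025. The part that linkage to the Pld6 mutation has in the level of 2610507I01Rik was not tested.

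Eif3j1, which encodes a subunit of the translation initiation factor eIF3, showed the largest fall among the called genes after Pld6. It was measured at 47.9 and 88.2 CPM in Dnmt3L KO and at 0.213, 0.227 and 0.293 CPM in DKO (log2 fold change -8.00 ± 1.32, adjusted p = 0.0463). Its copy Eif3j2 moved the other way, from 47.8 and 11.97 CPM to 85.4, 81.5 and 94.2 CPM (log2 fold change 1.54, adjusted p = 0.256). Over 2369 aligned bases the longest transcripts of the 2 genes were 99.8% identical, so the assignment of reads between them is uncertain. The sum of both, lower in every DKO library than in both Dnmt3L KO libraries, was 95.7 and 100.2 CPM in Dnmt3L KO and 85.6, 81.7 and 94.5 CPM in DKO, a difference of -10.7 CPM (exact two-sided permutation p = 0.2, the smallest that 3 against 2 libraries allow). The split also differed between the WT libraries, with Eif3j1 at 83.9 CPM in replicate 1 and 0.336 CPM in replicate 2. Pld6 KO libraries held 0.24 to 0.30 CPM of Eif3j1, near WT replicate 2. What decides the division of fragments between the copies was not tested.

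**Figure D2:**
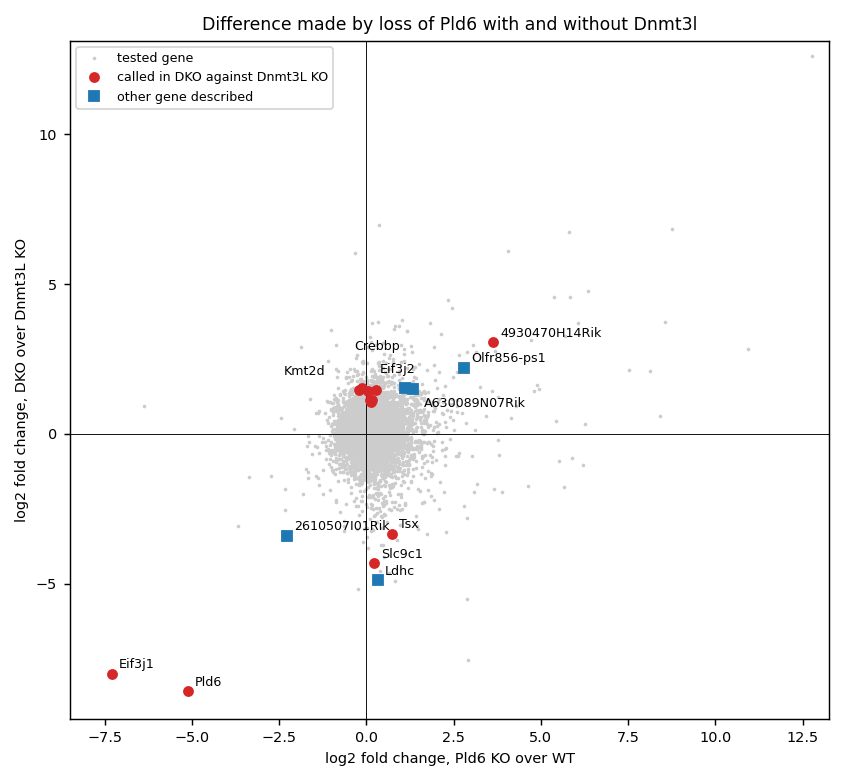
Difference made by the loss of Pld6 without Dnmt3l (vertical axis, log2 fold change of DKO over Dnmt3L KO) against the same loss with Dnmt3l (horizontal axis, log2 fold change of Pld6 KO over WT). Each grey point is 1 of 15901 genes, red circles are the 12 called genes and blue squares other genes described. 4930470H14Rik and Olfr856-ps1 lie at the upper right and Pld6, Eif3j1 and 2610507I01Rik at the lower left, while Crebbp, Kmt2d, Slc9c1, Tsx and Ldhc lie near 0 on the horizontal axis.

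Among the protein-coding genes called higher in DKO were Crebbp, Kmt2d, Plec, Gltscr1 and Bcl9l. Crebbp, a histone acetyltransferase, was measured at 54.0 and 69.3 CPM in Dnmt3L KO and at 191, 158 and 167 CPM in DKO (log2 fold change 1.48 ± 0.18, adjusted p = 0.0194). Kmt2d, a histone H3 lysine methyltransferase of enhancers, was measured at 144 and 135 CPM and at 353, 441 and 369 CPM (1.47 ± 0.23, adjusted p = 0.0424). In both genes the lowest DKO library was more than 2-fold above the highest Dnmt3L KO library. Plec, a large linker of the cytoskeleton, was measured at 131 and 150 CPM in Dnmt3L KO and at 452, 310 and 378 CPM in DKO (1.43 ± 0.22, adjusted p = 0.0424). Gltscr1, a subunit of a chromatin remodelling complex, rose by 1.13 ± 0.18 and Bcl9l, a coactivator of β-catenin, by 1.12 ± 0.16 on the log2 scale.

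In WT these 5 genes stood between the 2 mutant groups, above both Dnmt3L KO libraries and below all DKO libraries. Their log2 fold changes of Pld6 KO over WT were between -0.21 and 0.28. Crebbp was at 114 and 95.0 CPM in WT and 114 to 140 CPM in Pld6 KO (log2 fold change 0.28, unadjusted p = 0.107). Kmt2d was at 313 and 268 CPM in WT and 192 to 336 CPM in Pld6 KO (-0.21, unadjusted p = 0.338). The difference between the 2 effects of Pld6 loss was 1.20 ± 0.24 for Crebbp, 1.68 ± 0.31 for Kmt2d and 1.39 ± 0.29 for Plec (log2), each with an adjusted p of 0.341 over all genes. The 7 genes next in line by p-value were Hipk2, Zbtb20, Kdm6b, Olfr856-ps1, Hivep3, Spen and Zfhx3 (adjusted p 0.0554 to 0.0612).

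Transcript length and base composition moved with the comparison across the whole genome. Of the 15 genes made up of the 8 called higher in DKO and the 7 next in line, 13 were in the top quintile of genes for length of the longest transcript and 7 in the top quintile for GC content. Both Dnmt3L KO libraries were low in GC-rich transcripts: across 15762 genes, the deviation of a library from the mean of the 11 libraries correlated with GC content at Spearman's rho -0.39 in both, against 0.26, 0.007 and 0.032 in DKO. The median log2 fold change of DKO over Dnmt3L KO went from -0.24 in the GC-poorest quintile to 0.28 in the GC-richest, and from -0.17 in the shortest quintile to 0.24 in the longest. In the GC-richest quintile, 740 of 3153 genes were higher at an unadjusted p under 0.05 and 25 lower, and in the GC-poorest 91 were higher and 502 lower. With a smooth offset per library for GC content and length, added after the data were seen, 2 calls were left, 4930470H14Rik (log2 fold change 3.33, adjusted p = 0.027) and Pld6 (adjusted p = 0.0271). Under that offset the median log2 fold change of the 15 genes was 0.71 in place of 1.48, and 6 stayed over 2-fold. Kmt2d went from 1.47 to 0.46, Plec from 1.43 to 0.39 and Bcl9l from 1.12 to 0.48. Gltscr1 went from 1.13 to 0.54 and Crebbp from 1.48 to 0.94. All 15 kept an unadjusted p under 0.05, which their choice by p-value in these same libraries favours. The part that composition has in the difference of each gene was not tested.

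**Figure D3:**
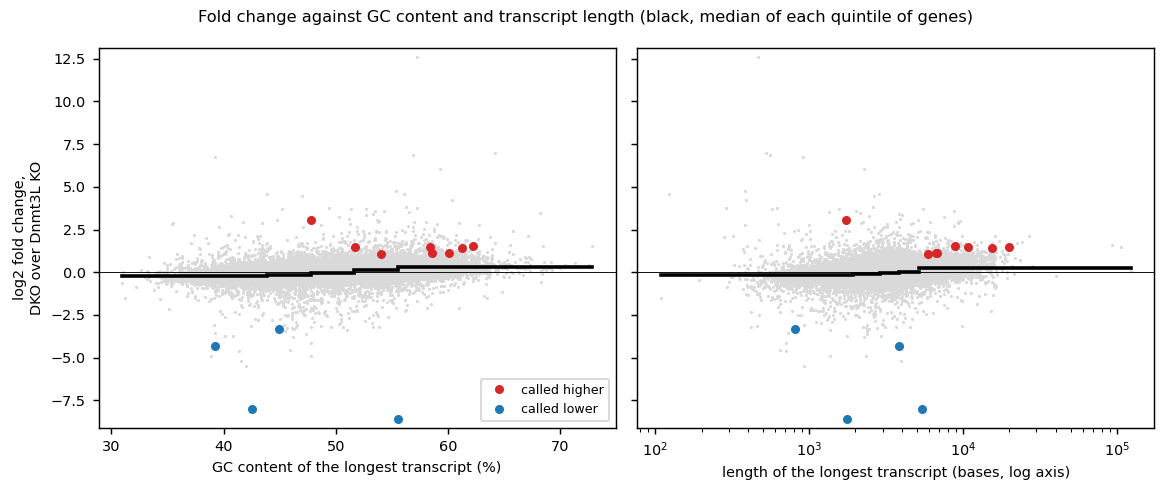
Log2 fold change of DKO over Dnmt3L KO (vertical axis) against GC content in % (left) and length in bases on a log axis (right) of the longest transcript. Grey points are genes, red points the genes called higher, blue points those called lower, and black lines the median of each quintile of genes. The medians step upwards from -0.24 to 0.28 with GC content and from -0.17 to 0.24 with length, and all red points but that of 4930470H14Rik lie at the right of the length panel.

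Besides Pld6 and Eif3j1, both genes called lower in DKO were genes of the testis whose level was higher in both Dnmt3L KO libraries than in any other P0 library. Slc9c1, a sodium/proton exchanger of sperm, was measured at 3.07 and 1.65 CPM in Dnmt3L KO and at 0.107, 0.152 and 0.0838 CPM in DKO, and from 5 counts against 54 the ratio was 21.9 (95% exact interval 8.82 to 70.1, adjusted p = 0.0424). WT and Pld6 KO libraries held 0.0826 to 0.403 CPM. Tsx, an X-linked gene expressed in testis, was measured at 9.03 and 2.34 CPM in Dnmt3L KO and at 0.533, 0.379 and 0.713 CPM in DKO (log2 fold change -3.33 ± 0.55, adjusted p = 0.0463), with 0.672 to 1.97 CPM in the other 6 libraries. The DKO libraries thus lay within or below the range of WT for both genes, while the Dnmt3L KO libraries lay above it.

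The genes next in line by p-value differed in how even the Dnmt3L KO libraries were. Ldhc, the lactate dehydrogenase of male germ cells, was measured at 65.7 CPM in replicate 1 and 2.08 CPM in replicate 2, and at 1.49, 1.21 and 0.838 CPM in DKO (adjusted p = 0.0612). Crisp2, a sperm protein, was measured at 20.9 and 2.26 CPM, and at 0.213, 0.607 and 0.293 CPM (adjusted p = 0.0612). Of the 14 genes listed as lower, Pld6 left out, 7 were more than 2-fold higher in Dnmt3L KO replicate 1 than in replicate 2, and 10 were still more than 2-fold lower in DKO without replicate 1. Over the 323 genes that were more than 2-fold lower in DKO with no overlap of libraries, 20.1% were more than 2-fold higher in replicate 1 than in replicate 2 and 10.8% the other way round. Without replicate 1 the log2 fold change of Ldhc went from -4.89 to -0.85, that of Tsx from -3.33 to -2.05 and that of Slc9c1 from -4.31 to -3.80. Rnf32, a RING finger gene expressed in testis, was measured at 15.3 and 4.25 CPM against 1.39 to 1.52 CPM in DKO, so that here the groups remained apart in both replicates. Gm6251 was even between replicates, at 135 and 166 CPM against 47.5, 78.2 and 52.8 CPM in DKO (log2 fold change -1.34, adjusted p = 0.0612).

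Gene lists were described by their members at an unadjusted p under 0.05, where 9.99% of all genes were higher and 7.84% lower. With the offset for GC content and length these shares were 4.75% and 4.4%, and without Dnmt3L KO replicate 1 they were 4.64% and 2.38%. Markers of late germ cells had a median log2 fold change of -1.39 over the 11 members tested, against -0.01 over all genes, with 5 lower and 0 higher. Without Dnmt3L KO replicate 1 the median was -0.13 and 2 were lower. Of 23 markers of meiotic spermatocytes 6 were lower and 1 higher, with a median of -0.37, and without that replicate 0 were lower and 1 higher, with a median of 0.04. The synaptonemal complex gene Sycp3 was at 34.7 and 6.68 CPM in Dnmt3L KO and at 4.93 to 8.21 CPM in DKO (unadjusted p = 0.0099), so that replicate 2 lay within the range of DKO. Of 19 germline genes known to be silenced by promoter methylation, 4 were lower and 0 higher, with a median of -0.52. Without replicate 1 the direction turned, with 4 higher and 0 lower and a median of 0.18.

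Of the 28 prospermatogonial and germ cell markers tested, 8 were higher and 1 lower at an unadjusted p under 0.05, against 9.99% and 7.84% of all genes, and the list's median log2 fold change was -0.04, with 13 members positive and 15 negative. The 6 members with the smallest p-values are given in turn, and none passed the adjusted threshold. Ret, the receptor tyrosine kinase through which GDNF maintains spermatogonial stem cells, was measured at 6.23 and 2.86 CPM in Dnmt3L KO and at 71.6, 28.1 and 78.0 CPM in DKO (log2 fold change 3.70 ± 0.94, adjusted p = 0.102). Gfra1, its co-receptor, was measured at 13.9 and 6.68 CPM and at 51.8, 23.7 and 57.4 CPM (2.11 ± 0.73, adjusted p = 0.173). Etv4, a transcription factor induced by GDNF signalling, was measured at 5.26 and 2.26 CPM and at 21.96, 14.6 and 28.7 CPM (2.53 ± 0.62, adjusted p = 0.0954). In each of the 3 genes every DKO library lay above both Dnmt3L KO libraries. Their choice by p-value favours this order, and 19.4% of all genes tested had it.

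Zbtb16 (PLZF) and Sall4, zinc finger factors of undifferentiated spermatogonia, had the same order. Zbtb16 was measured at 4.56 and 2.26 CPM in Dnmt3L KO and at 36.3, 10.9 and 36.9 CPM in DKO (3.04 ± 0.87, adjusted p = 0.125), and Sall4 at 9.12 and 7.81 CPM and at 55.8, 13.9 and 62.4 CPM (2.38 ± 0.89, adjusted p = 0.196). Nanos2, an RNA-binding protein of male germ cells, was at 0.263 and 0 CPM in Dnmt3L KO, which is 3 counts in all, and at 1.81, 0.834 and 2.77 CPM in DKO, a ratio of 15.5 (95% exact interval 5.14 to 76.4, adjusted p = 0.0954). DKO replicate 2, the library lowest in germ cell markers, was the lowest DKO library in each of these 6 genes.

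The pan-germ-cell genes Ddx4 and Dazl did not show this order. Ddx4 was measured at 92.8 and 55.6 CPM in Dnmt3L KO and at 75.2, 40.6 and 90.7 CPM in DKO (log2 fold change -0.11, unadjusted p = 0.784), and Dazl, another germ cell RNA-binding protein, at 171 and 107 CPM and at 152, 75.0 and 159 CPM (-0.11, unadjusted p = 0.783). The 8 higher members were the 6 genes above, Id4 (0.99) and Nanos3 (1.34), and the 1 lower was Tex101, at 64.2 CPM in Dnmt3L KO replicate 1 and 7.98 CPM in replicate 2. With the offset for GC content and length 8 of 28 were higher and 0 lower, against 4.75% and 4.4% of all genes. Without Dnmt3L KO replicate 1 7 of 28 were higher and 0 lower, and Tex101 changed sign, from -1.22 to 0.96.

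In WT, Ret, Gfra1 and Etv4 stood above both Dnmt3L KO libraries. Ret was at 43.7 and 19.6 CPM in WT and at 6.84 to 90.2 CPM in Pld6 KO, Gfra1 at 29.7 and 21.7 CPM and at 7.25 to 69.5 CPM, and Etv4 at 26.1 and 13.9 CPM and at 5.94 to 31.0 CPM. The spread over the 4 Pld6 KO libraries was wide in all 3. Prospermatogonial markers summed to 254 CPM in Pld6 KO replicate 1, against 905, 949 and 803 CPM in the other Pld6 KO libraries. The difference between the effects of Pld6 loss without and with Dnmt3l was 3.53 ± 1.15 for Ret (unadjusted p = 0.00839, adjusted p = 0.383) and 2.82 ± 0.78 for Etv4 (unadjusted p = 0.00292, adjusted p = 0.344). For Nanos2, WT libraries held 0 and 0.0840 CPM and Pld6 KO 0.0826 to 0.257 CPM, so that the 3 DKO libraries were the highest of the 11.

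**Figure D4:**
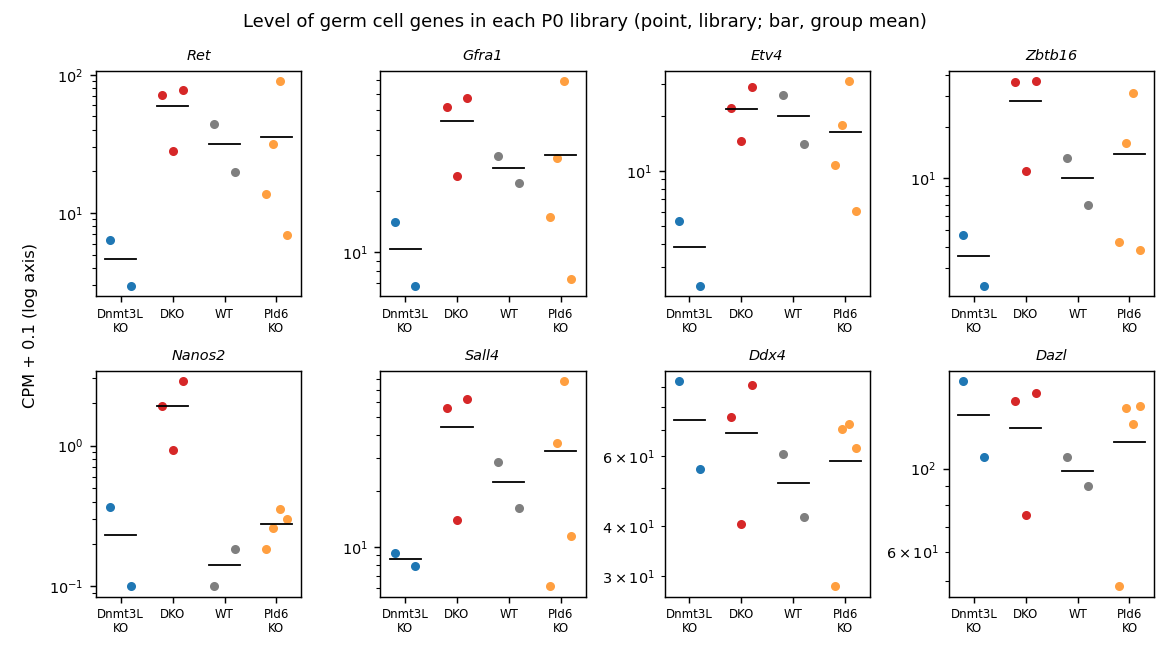
Level of the 6 germ cell markers with the smallest p-values and the pan-germ-cell genes Ddx4 and Dazl in each P0 library. The vertical axis gives CPM plus 0.1 on a log scale, each point is a library and each bar the mean of a group. The 3 DKO points lie above both Dnmt3L KO points for Ret, Gfra1, Etv4, Zbtb16, Nanos2 and Sall4, and overlap with them for Ddx4 and Dazl. Of all genes tested, 19.4% had DKO above Dnmt3L KO in this way.

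Genes of the piRNA pathway were listed as a group. Of 27 members tested, 1 was called, Pld6 itself, and 1 was higher and 4 lower at an unadjusted p under 0.05, Pld6 included, against 9.99% and 7.84% of all genes, with a median log2 fold change of -0.13. Tex15, an effector of piRNA-directed silencing in fetal germ cells, was at 90.7 and 69.1 CPM in Dnmt3L KO and at 121, 106 and 137 CPM in DKO (0.61, unadjusted p = 0.0336). The Tudor domain genes Tdrd6 (-1.40) and Tdrkh (-0.78) and the related Rnf17 (-0.83) were lower, at an unadjusted p of 0.0167, 0.0276 and 0.0446. Among 16 genes of DNA methylation and demethylation 4 were higher and 0 lower, against 9.99% and 7.84% of all genes, namely the dioxygenases Tet3 (68.7 and 87.2 against 159, 132 and 152 CPM, unadjusted p = 0.000713), Tet2 and Tet1 and the methyltransferase Dnmt3a. With the offset for GC content and length 2 were higher, against 4.75% of all genes, and Dnmt3a changed sign, from 0.41 to -0.09. Among 21 genes of H3K9 methylation and MORC silencing 0 were higher and 1, Setdb2, was lower. Of 24 genes of the phospholipase D family and mitochondrial dynamics, Pld6 and Mtfr1 (-0.47, unadjusted p = 0.0447) were lower and 0 higher.

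A pair of gene lists drawn up by the study from its spermatocyte libraries, of genes beside retrotransposons, was compared first between DKO and Dnmt3L KO. The list for Pld6 KO had 8 of 13 members tested, with 0 higher and 1 lower and a median log2 fold change of 0.14. The list for Dnmt3l KO had 27 of 37 members tested, with 1 higher and 1 lower and a median of 0.19. These counts are at an unadjusted p under 0.05, where 9.99% of all genes were higher and 7.84% lower. Between Pld6 KO and WT the list for Pld6 KO had a median of 0.83, with 4 higher and 0 lower. The list for Dnmt3l KO had a median of 0.30 there, with 5 higher and 1 lower. Over all genes that median was 0.02, with 3.14% higher and 1.92% lower. Caps2, a calcium-binding protein gene on both lists, was measured at 1.84 and 1.48 CPM in Dnmt3L KO and at 0.746, 0.758 and 0.796 CPM in DKO (log2 fold change -1.10, unadjusted p = 0.0469). In the libraries with Dnmt3l it stood at 0.170 and 0.252 CPM in WT and at 0.428 to 1.21 CPM in Pld6 KO. Each library of the single and double losses was thus above both WT libraries. For Caps2 WT held only 2 and 3 counts, and the adjusted p between Pld6 KO and WT was 0.963. Tmc2, a channel gene of sensory hair cells, was at 1.40 and 3.64 CPM in Dnmt3L KO and at 7.46, 7.50 and 5.78 CPM in DKO (1.44, unadjusted p = 0.0633), with 0.170 and 0.252 CPM in WT and 0.743 to 10.3 CPM in Pld6 KO. All libraries without Pld6 or Dnmt3l were above both WT libraries for Tmc2, and the 3 DKO libraries were above both Dnmt3L KO libraries. For Tmc2 too WT held only 2 and 3 counts, and the adjusted p between Pld6 KO and WT was 0.522.

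Among imprinted genes, those of paternally methylated loci had a median log2 fold change of 0.52, with 3 of 9 higher and 0 lower at an unadjusted p under 0.05, and with the offset for GC content and length 1 was higher and the median was 0.31. Zdbf2, a paternally expressed gene, was measured at 56.1 and 64.2 CPM in Dnmt3L KO and at 96.0, 94.0 and 94.0 CPM in DKO (0.65 ± 0.16, unadjusted p = 0.00111), above both WT libraries at 72.9 and 62.2 CPM. Rtl1 was measured at 2.63 and 2.08 CPM and at 13.1, 6.29 and 3.94 CPM (unadjusted p = 0.00339), and Meg3 at 955 and 1129 CPM and at 1400, 1812 and 1263 CPM (unadjusted p = 0.0332). With the offset Meg3 changed sign, from 0.52 to -0.03. Rtl1 and Meg3 share the Dlk1 locus on chromosome 12, where Dlk1 itself stood at 544 and 1102 CPM and at 1197, 1213 and 977 CPM (unadjusted p = 0.15). Of 23 genes of maternally methylated loci 6 were higher and 0 lower, against 9.99% and 7.84% of all genes, and the median was 0.06. With the offset 4 were higher and 1 lower, and without Dnmt3L KO replicate 1 2 were higher. The smallest p belonged to the antisense transcript Kcnq1ot1, at 51.0 and 30.7 CPM against 171, 124 and 74.4 CPM (unadjusted p = 0.00593), whose log2 fold change was 1.59, and 0.57 with the offset.

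Immediate early genes, which are induced within minutes by growth factors or handling, were positive in 20 of 21 cases, against 7800 of 15901 genes tested, and 8 were higher and 0 lower at an unadjusted p under 0.05, against 9.99% and 7.84% of all genes (median log2 fold change 0.62). Fos was measured at 5.44 and 2.17 CPM in Dnmt3L KO and at 19.4, 7.51 and 6.87 CPM in DKO, and Jun at 65.5 and 69.2 CPM and at 185, 81.2 and 107 CPM. DKO replicate 1, which was also highest in Rn45s, was the highest library for both. Of 30 cell cycle genes 9 were lower and 0 higher, against 7.84% of all genes lower, with a median of -0.32. This was 5 with the offset for GC content and length, against 4.4% of all genes, and 3 without Dnmt3L KO replicate 1, against 2.38%. Nusap1, a spindle protein, was measured at 154 and 143 CPM in Dnmt3L KO and at 90.3, 95.2 and 97.3 CPM in DKO (unadjusted p = 0.00289), near the lower of the WT libraries at 95.2 and 150 CPM. Of 31 interferon-response genes 5 were lower and 0 higher, with a median of -0.37. Without Dnmt3L KO replicate 1 11 were lower and the median was -0.82, and replicate 2 held the highest summed level of the 5 libraries, 672 CPM. Irf9, a transcription factor of this response, was at 26.3 and 45.8 CPM in Dnmt3L KO and at 25.5, 24.9 and 22.1 CPM in DKO (unadjusted p = 0.0207), so that DKO lay just below replicate 1.

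Lists of somatic cell markers differed from each other in direction. Of 30 Sertoli cell markers 2 were higher and 7 lower, Tsx included, against 9.99% and 7.84% of all genes. Their median log2 fold change was -0.11, with 13 positive and 17 negative. With the offset for GC content and length 3 were higher and 3 lower. Of the 2 higher, Sox9 is the factor that specifies Sertoli cells. Its level was 33.9 and 47.4 CPM in Dnmt3L KO and 114, 52.2 and 69.5 CPM in DKO (log2 fold change 0.95, unadjusted p = 0.0273). Of 22 fetal Leydig cell markers 2 were higher and 1 lower, the steroidogenic enzyme Hsd3b1, at 1313 and 1561 CPM against 765, 1093 and 791 CPM (-0.70, unadjusted p = 0.0124). Peritubular myoid and smooth muscle markers were higher in 5 of 15 cases and lower in 0, with 14 of 15 positive and a median of 0.53, and with the offset 2 were higher and the median was 0.28. Of these, the contractile-cell genes Smtn and Lmod1 were also higher in Pld6 KO than in WT at an unadjusted p of 0.00621 and 0.00432. Markers of rete, epididymis and mesonephros were positive in 13 of 14 cases with a median of 0.81, and 1, the transcription factor gene Lhx1, was higher at an unadjusted p under 0.05, at 0.614 and 0.0868 CPM in Dnmt3L KO and at 3.31, 1.97 and 6.04 CPM in DKO. The median of this list was 0.76 with the offset, 0.37 without Dnmt3L KO replicate 1 and 1.02 between Pld6 KO and WT. Of 14 markers of interstitial stroma 2 were higher and 0 lower, 8 were positive and the median was 0.06, and with the offset 0 were higher. The collagen gene Col1a1 of that list was at 652 and 1058 CPM in Dnmt3L KO and at 2406, 1858 and 1474 CPM in DKO (1.16, unadjusted p = 0.00274), and was also higher in Pld6 KO than in WT (0.98, unadjusted p = 0.00632). Among 14 endothelial markers 2 were higher and 1 lower, among 17 of macrophages 0 and 0, and among 13 of blood 2 and 0. No marker of these lists other than Tsx passed the adjusted threshold.

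**Figure D5:**
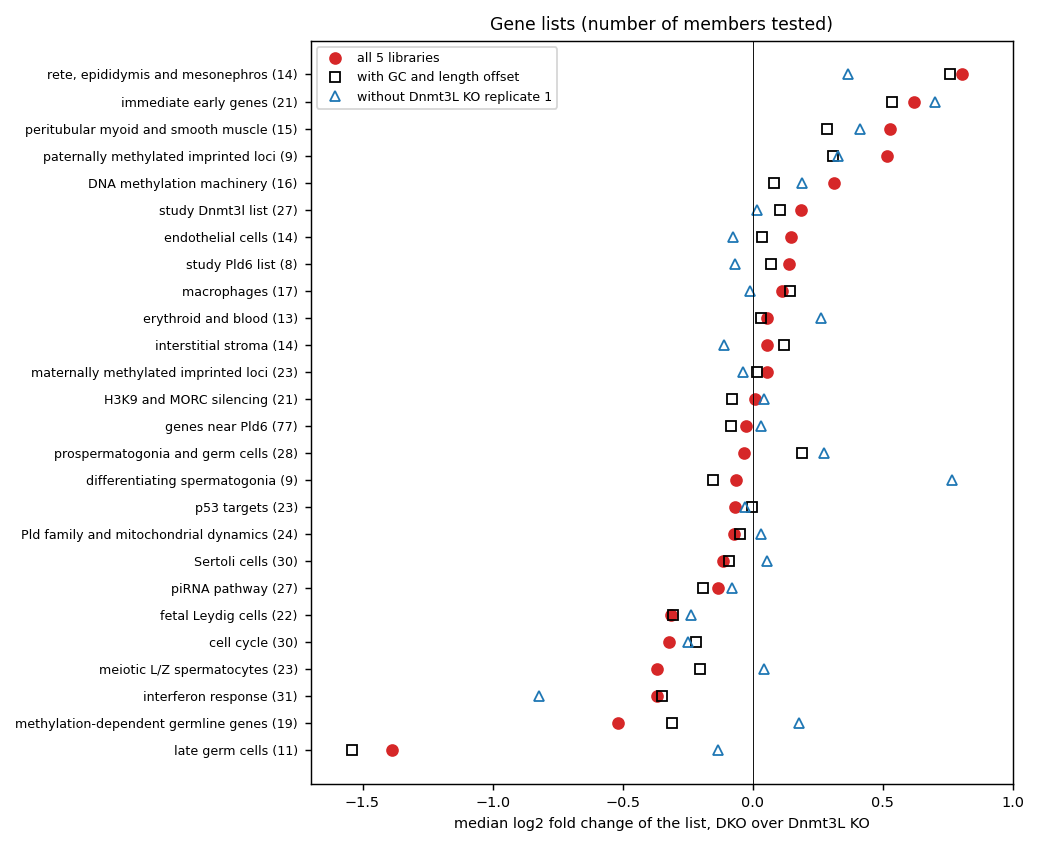
Median log2 fold change of DKO over Dnmt3L KO for each gene list, with the number of members tested in parentheses. Red circles are the values over all 5 libraries, black squares those with the offset for GC content and length, and blue triangles those without Dnmt3L KO replicate 1. Late germ cell genes move from -1.39 to -0.13, and genes silenced by methylation from -0.52 to 0.18, when replicate 1 is left out, while immediate early genes stay between 0.54 and 0.70.

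The effect of Pld6 loss was compared between the backgrounds gene by gene. The difference of the effects passed an adjusted p of 0.05 for 0 of 15901 genes by edgeR, with 1740 genes (10.9%) at an unadjusted p under 0.05, 1033 positive (6.5%) and 707 negative (4.45%), and a smallest adjusted p of 0.341, and the DESeq2 Wald test called 54. Across genes the 2 log2 fold changes, which come from separate libraries, correlated at Pearson's r = 0.17 and Spearman's rho = 0.026, as a description over 15901 genes that are not independent. With the offset for GC content and length the values were 0.23 and 0.12. Between Pld6 KO and WT, 805 genes (5.06%) differed at an unadjusted p under 0.05, 500 higher (3.14%) and 305 lower (1.92%). Of the 15 genes named as higher, 9 had the same sign between Pld6 KO and WT and 2 passed an unadjusted p of 0.05 there, 4930470H14Rik and Olfr856-ps1. Of the 14 named as lower, 5 had the same sign and 2 passed, Eif3j1 and 2610507I01Rik. For Eif3j1 this rested on WT replicate 1, since WT replicate 2 stood near Pld6 KO.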

How the data were processed

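The fit used 11 stranded poly(A) RNA libraries from P0 testes. Per the labels the authors mapped reads to mm10 with TopHat, and per the labels and methods Cuffdiff quantified RefSeq genes, with versions not given in the sources used here. The deposited estimated counts (97.7% whole numbers) and FPKM are per gene and library. Rn45s and Ss18 lacked a usable status and were left out. The table numbers replicates from 0 and the labels from 1, and the order was taken as the same.

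After rounding, estimated counts were analysed by edgeR 4.0.16 under R 4.3.3 (filterByExpr, TMM, glmQLFit, glmQLFTest), all P0 groups in 1 fit. Calls needed a Benjamini-Hochberg adjusted p under 0.05 and a fold over 2. The interaction had no fold threshold. DESeq2 1.42.0, limma 3.58.1 (log2 of FPKM plus 1 or 0.1) and other alternatives are given in the closing section. GC content and length came from the longest GENCODE M21 transcript for 15762 genes, and the offset used loess curves of span 0.3. Steps were tested on simulated data. Intervals cover counting error only, and PCR reads are not independent molecules. Same-group libraries differed beyond sampling noise.

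Named genes were the targeted genes, all called genes and the next by p-value up to 15 in each direction with groups that do not overlap, the 5 genes the study describes beside a retrotransposon, and up to 6 members of each list by p-value. Any further gene was picked with its values in view. Some genes selected this way are counted but not reported here. Members and lists were chosen with earlier results of these data known. P0 libraries without separate animals stated measure the spread between samples, which may be technical. Retrotransposon copies, small RNA, DNA methylation and spermatocyte libraries were not analysed here.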

Additional observations from a re-analysis of the deposited data

Results flagged for a closer look

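Among 34 groups of 4 libraries checked for a library far from the others, 2 were found. Chance alone flags about 1 group in 20, so 2 of 34 is near that rate. In Pld6 KO, 2610507I01Rik was at 3.82, 4.45 and 6.85 CPM in 3 libraries and at 30.4 CPM in replicate 1, a gap of 0.886 of the whole range. Caps2 was at 0.428, 0.495 and 0.556 CPM in 3 Pld6 KO libraries and at 1.21 CPM in replicate 4, a gap of 0.835 of the range. Neither group enters the comparison of DKO with Dnmt3L KO, whose groups are too small for such a check.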

How the results depend on the processing

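Against 12 calls between DKO and Dnmt3L KO, the count was 91 without a filter on low counts (57 higher, 34 lower), 258 by the DESeq2 Wald test (204 and 54) and 109 in a fit of both groups alone (91 and 18). It was 0 with the replicate number as a block and 0 to 121 without 1 replicate (with 14 higher and 107 lower without Dnmt3L KO replicate 2). It was 2 with the offset for GC content and length, and 0 with that offset without Dnmt3L KO replicate 1 or without DKO replicate 1, settings chosen after seeing the data. Size factors from DESeq2 gave 11, a mean of at least 50 counts 9, limma 9 and 8, and no fold threshold 13. Against 1 call between Pld6 KO and WT, the count was 4 without a filter, 14 by the DESeq2 Wald test, 3 and 4 by limma, 0 with the replicate block, 4 in a fit of both groups alone and 1 to 4 without 1 replicate. Against 0 genes whose effect differed between backgrounds, it was 54 by the DESeq2 Wald test and 0 to 16 without 1 replicate. Where Dnmt3L KO or WT kept 1 library, it was assumed to vary like the other groups. The causes were not tested, other than the smaller number of samples where a library is left out. Deviations of same-numbered DKO and Dnmt3L KO libraries from their group means correlated at -0.13 and -0.13. With 2 Dnmt3L KO libraries these deviations mirror each other, so this check cannot tell whether samples were paired. The log2 fold changes of the genes described were counted once per gene and setting. Of these pairs 791 kept their direction and side of the threshold, and genes past it in neither fit are included. The threshold was lost in 76 pairs and gained in 63. The sign changed in 20, with none of the 20 past the threshold. Without 1 replicate, Sycp3 ranged from -2.31 to 0.058, Tex101 from -2.04 to 0.96, Dazl from -0.40 to 0.27, Ddx4 from -0.42 to 0.31 and Hba-a2 from -3.29 to 10.15. With the offset the sign changed for Dnmt3a (-0.094), Meg3 (-0.028), Dazl (0.19) and Ddx4 (0.14). With the offset without Dnmt3L KO replicate 1 it changed for Dnmt3a (-0.175), Meg3 (-0.012), Dlk1 (-0.11), Sycp3 (0.41), Tex101 (1.06), Dazl (0.51) and Ddx4 (0.53), and with the offset without DKO replicate 1 for Dnmt3a (-0.041) and Ddx4 (0.046). Of the list medians, counted once per list and setting over 26 lists, 310 moved by less than the spread between replicates and 54 by more. With 2 libraries against 3, and Dnmt3L KO replicate 1 distinct in late germ cell transcripts, precision is limited by the number of libraries.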

Other observations

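The transcribed pseudogene Atp6v0c-ps2 was listed at 0 in both Dnmt3L KO and both WT libraries, and held 630, 798 and 1412 counts in DKO and 1516, 956, 0 and 734 counts in Pld6 KO (unadjusted p = 0.00100 between DKO and Dnmt3L KO). It was chosen after its values were seen, and the division of fragments between this pseudogene and its parent gene was not tested. Alpha-globin Hba-a2 was at 33.5 CPM in DKO replicate 2 and at 0 in the other DKO libraries, with 0 and 0.174 CPM in Dnmt3L KO.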
